A study of Homo sapiens with 2 samples.

Results

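The WNT genes described here are the secreted WNT ligands, their Frizzled (FZD) receptors, the LRP5 and LRP6 co-receptors, the secreted inhibitors of the SFRP and DKK families, and the intracellular genes AXIN1, AXIN2, APC, CTNNB1, LEF1, TCF7, TCF7L1 and TCF7L2. Probe sets were selected by gene symbol alone, with no use of their values. The list of symbols was chosen with earlier results of these data known. Of 47 genes named by that choice, 43 had a probe set annotated with that gene only, out of 19775 genes on the arrays, and all 43 Entrez gene IDs matched the same symbol in the RefSeq gene table. WNT3 and FZD8 had only probe sets annotated with a second gene, and WNT3A and TCF7 were not analysed here.

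Expression was measured with Affymetrix 3' arrays in hTERT-RPE1, a human retinal pigment epithelial cell line immortalised with telomerase. One culture received a miR-129-3p oligo (M129, labelled as overexpression) and the other a control oligo, both with the lipid reagent RNAiMAX. RNA was taken after 72 h, and both cultures grew in DMEM/F-12 with 10% FBS and hygromycin B. Each condition had 1 array of 1 culture of a single line, so no difference below has a replicate error or a test, and each compares 2 arrays.

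WNT proteins are secreted lipid-modified ligands that bind a Frizzled together with LRP5 or LRP6. In the canonical branch this blocks the destruction complex, in which AXIN and APC hold beta-catenin for degradation, and beta-catenin then drives transcription with TCF/LEF factors. WNT5A and WNT5B mostly act through other branches that bear on cell polarity and movement. In the developing eye the pathway takes part in the specification of the retinal pigment epithelium, and FZD4 is known for its role in retinal blood vessel growth.

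The oligo is named only as miR-129-3p. RefSeq (GRCh38.p14) gives that arm from a pair of loci, shown here because the seed, bases 2 to 8 in capitals, is the part that pairs with target transcripts.
hsa-miR-129-1-3p: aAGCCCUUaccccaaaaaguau
hsa-miR-129-2-3p: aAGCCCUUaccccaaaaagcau
The first lies at chr7:128207920-128207941 and the second at chr11:43581450-43581471, both on the plus strand. They share the seed AGCCCUU and differ by U20C, counted from the 5′ end of hsa-miR-129-1-3p, and which of them the oligo carried is not given in the sources used here. Pairing of the seed with transcripts of the WNT genes was not analysed here, and neither was the level of the mature miRNA.

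Signals are the deposited linear intensities, and a difference is log2(signal + 16) on the miR-129-3p array minus the same on the control array, a scale that understates differences of dim genes. Each gene is represented by its brightest probe set and counts as measured at a signal of 100 or more on either array. The median signal over 54613 probe sets was 98.0 on the miR-129-3p array and 96.5 on the control array. Where a gene had several probe sets above that limit, the SD between them, pooled over 6179 such genes, was 0.37. It is the yardstick used below and says nothing of how cultures vary.

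Of the 43 genes 30 were measured. At a limit of 1.5-fold, 5 were higher with miR-129-3p (FZD4, FZD5, FZD3, WNT2B and AXIN1) and 3 were lower (LEF1, WNT5B and LRP6). That is 16.7% higher and 10.0% lower, beside 17.3% and 10.8% of all 12754 measured genes. The share of WNT genes past the limit was thus near that of genes in general. Their median difference of 0.02 was also close to the 0.03 of all measured genes, and the median absolute difference was 0.26 against 0.32. The differences below are those of single genes and not a shift of the family. FZD3 and WNT2B were measured only through the miR-129-3p array and so had to differ. Among the 27 genes at 100 or more on both arrays, 3 were higher and 3 lower. The share of all genes under that stricter filter is not given here. At a limit of 2-fold, 3 of the 30 were higher (7.83% of all measured genes) and 2 lower (4.56%). In a whole culture, fewer cells with a transcript and less of it per cell cannot be told apart.

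**Figure D1:**
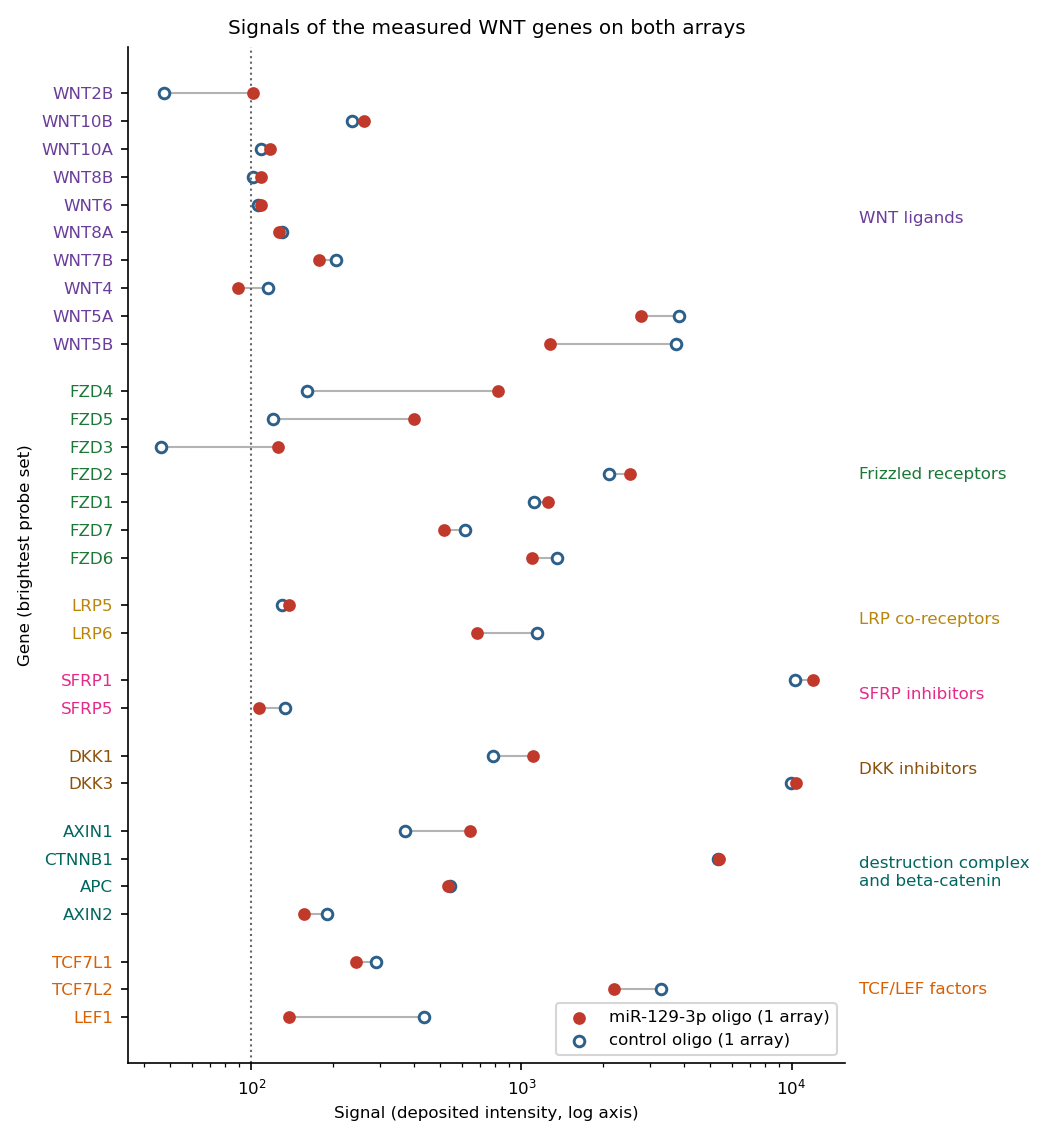
Signal of the 30 measured WNT genes on the miR-129-3p array (filled) and the control array (open), on a log axis, with 1 array per condition and a dotted line at 100. FZD4, FZD5 and FZD3 show the widest gaps to the right of their control signal and WNT5B and LEF1 the widest to the left; signals of different genes come from different probes and cannot be ranked against each other.

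Among the ligands, WNT5B was lower with miR-129-3p on both of its probe sets above the limit. WNT5B, a ligand of the non-canonical branch, had a signal of 1274 with miR-129-3p, against 3722 in control, a difference of -1.53 (2.90-fold lower). Its second probe set read 137 with miR-129-3p and 307 in control, a difference of -1.08. Only 241 of the 12754 measured genes lay as low or lower.

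WNT5A, its close relative and the best studied non-canonical ligand, was lower on both probe sets by unequal amounts. The brighter read 2777 with miR-129-3p, against 3825 in control, a difference of -0.46 that stayed within the 1.5-fold limit. The other read 496 with miR-129-3p, against 1169 in control, a difference of -1.21. The size for WNT5A therefore depends on the probe set, while the sign does not.

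The remaining ligands were dim on both arrays. WNT2B, which takes part in eye and lung development, had 102 with miR-129-3p and 47.6 in control, a difference of 0.89 from a signal just at the limit. Set against 100 in place of the control signal, this is at least 1.02-fold higher. Its other probe sets were under 100 on both arrays, and their differences ran from -0.05 to 1.24. WNT4 read 89.2 with miR-129-3p and 115 in control. WNT10B, which promotes bone formation, read 262 with miR-129-3p and 235 in control, and WNT7B 179 with miR-129-3p and 205 in control. WNT10A differed by 0.10 on the probe set used but by -0.84 on its other one above the limit, so its direction was not settled. That other probe set passed the limit only through the control array and so had to differ. WNT6, WNT8A and WNT8B had signals of 101 to 130 on both arrays, with differences of 0.03, -0.03 and 0.08. WNT1, WNT2, WNT7A, WNT9A, WNT9B, WNT11 and WNT16 were under 100 on both arrays.

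Frizzleds were the receptors with the largest differences. Of 7 measured Frizzleds 3 were at least 1.5-fold higher and 0 lower, beside 17.3% and 10.8% of all measured genes, and their median was 0.26. One of the 3, FZD3, was measured only through the miR-129-3p array. FZD4, which also binds the non-WNT ligand norrin, had a signal of 821 with miR-129-3p, against 161 in control, a difference of 2.24 (4.73-fold). It stood at place 244 of 12754 genes from the top. Its second probe set read 102 with miR-129-3p and 72.8 in control, a difference of 0.42 that is small beside that of the brighter probe set. That second probe set passed the limit only through the miR-129-3p array.

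FZD5, a receptor needed for eye development in vertebrates, was higher on both probe sets. The brighter had 399 with miR-129-3p and 120 in control, a difference of 1.61 (3.05-fold). The other had 128 with miR-129-3p, against 49.7 in control, a difference of 1.13. That probe set passed the limit only through the miR-129-3p array and so had to differ. FZD3, a receptor of axon guidance and planar polarity, read 126 with miR-129-3p and 46.0 in control, a difference of 1.19. With 100 in place of its control signal it was at least 1.26-fold higher. Its other 3 probe sets stayed under 100 on both arrays and differed by 0.44 to 1.01, in the same direction.

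The other Frizzleds differed little. FZD2 read 2522 with miR-129-3p, against 2106 in control, but its second probe set went the other way (839 with miR-129-3p, 1081 in control). FZD1 read 1257 with miR-129-3p and 1117 in control. FZD6, which like FZD3 acts in planar polarity, read 1096 with miR-129-3p and 1352 in control. FZD7 differed by -0.25 and 0.18 on its pair of probe sets. All of these differences were smaller than the pooled SD between probe sets. FZD9 and FZD10 were under 100 on both arrays.

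**Figure D2:**
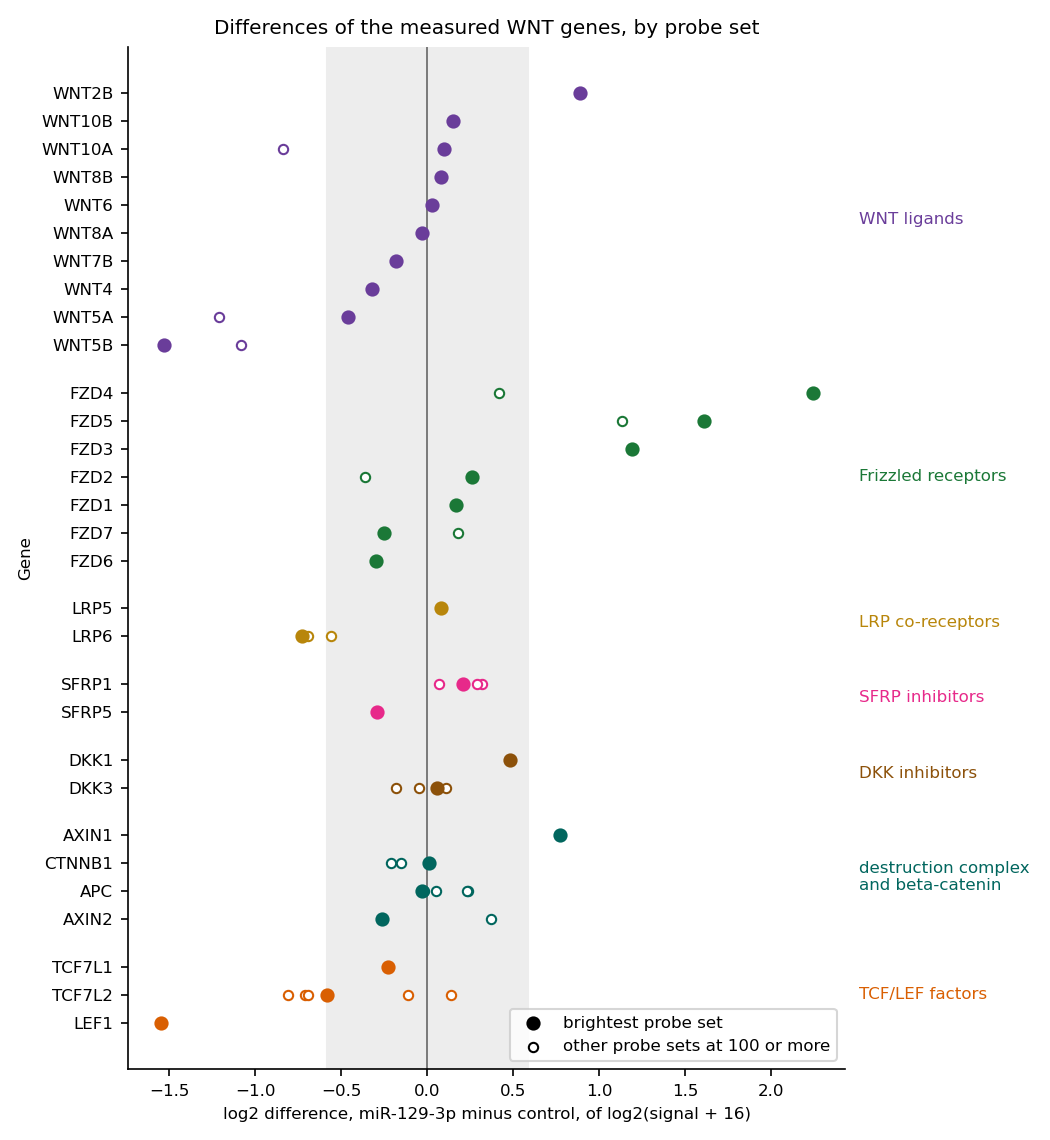
The log2 difference, miR-129-3p minus control, of each probe set at 100 or more on either array for the 30 measured WNT genes, with the brightest probe set filled, the others open, and the span within 1.5-fold shaded. Of the genes with several such probe sets, FZD4, FZD5, LRP6, SFRP1, WNT5A and WNT5B keep one direction. FZD2, FZD7, WNT10A, AXIN2, APC, CTNNB1, DKK3 and TCF7L2 have probe sets on both sides of 0. The second probe sets of FZD4, FZD5, WNT10A and AXIN2, and the dimmest of APC, reached 100 on only 1 array and so had to differ.

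The co-receptors diverged. LRP6 was lower on all 3 probe sets, at 683 with miR-129-3p against 1143 in control on the brightest (-0.73, 1.66-fold lower), and by -0.69 and -0.56 on the others. LRP5 read 138 with miR-129-3p and 129.4 in control, a difference of 0.08. LRP6 is the better known partner of canonical WNT signalling in the embryo, and LRP5 is known from its role in bone mass and, with FZD4, in retinal vessels.

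The secreted inhibitors showed small differences. SFRP1, a decoy that binds WNT proteins outside the cell, read 11960 with miR-129-3p, against 10319 in control. Its 4 probe sets differed by 0.07 to 0.32, all higher and all within the pooled SD. DKK1, which blocks LRP6 and is itself a target of beta-catenin, read 1100 with miR-129-3p and 784 in control, a difference of 0.48 on its only probe set. DKK3, a divergent member of the family, read 10428 with miR-129-3p and 9984 in control, and its 4 probe sets above the limit lay between -0.18 and 0.11. SFRP5 read 106 with miR-129-3p and 134 in control. SFRP2, SFRP4, DKK2 and DKK4 were under 100 on both arrays. Just outside the limit stood DKK2, at 98.1 in control, and WNT7A at 94.3. Just inside were WNT2B at 102 and WNT8B at 108 with miR-129-3p.

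In the cytoplasm, CTNNB1 hardly differed. This gene, which encodes beta-catenin, read 5406 with miR-129-3p and 5356 in control, a difference of 0.01, with its other probe sets at -0.21 and -0.15. APC, the scaffold lost in most colorectal cancers, read 534 with miR-129-3p and 545 in control, and its 5 probe sets lay between -0.03 and 0.24. AXIN1, the limiting scaffold of the destruction complex, was higher on its only probe set, at 642 with miR-129-3p, against 371 in control (0.77, 1.70-fold). AXIN2, the feedback gene most used to read canonical signalling, gave no single direction. One probe set above the limit read 156 with miR-129-3p and 191 in control (-0.26). The other such probe set read 111 with miR-129-3p and 82.2 in control (0.37), and it passed the limit only through the miR-129-3p array. The arrays read RNA, so the amount and location of beta-catenin protein were not measured.

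The 3 measured TCF/LEF factors were below 0, as were 6002 of all 12754 measured genes, and only LEF1 passed the 1.5-fold limit. LEF1, a DNA partner of beta-catenin and one of its targets, had 138 with miR-129-3p, against 437 in control, a difference of -1.55 (2.94-fold lower), at place 234 of 12754 from the bottom. Its other probe sets were under 100 on both arrays and differed by -0.09 and -0.32. TCF7L2, the main TCF factor of many epithelia, read 2196 with miR-129-3p and 3288 in control, a difference of -0.58 that just missed the 1.5-fold limit. Of its 7 probe sets 3 were at least 1.5-fold lower, and the highest stood at 0.14 on the dimmest. TCF7L1, which mostly represses, read 243 with miR-129-3p and 288 in control, a difference of -0.23 that is smaller than the pooled SD.

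**Figure D3:**
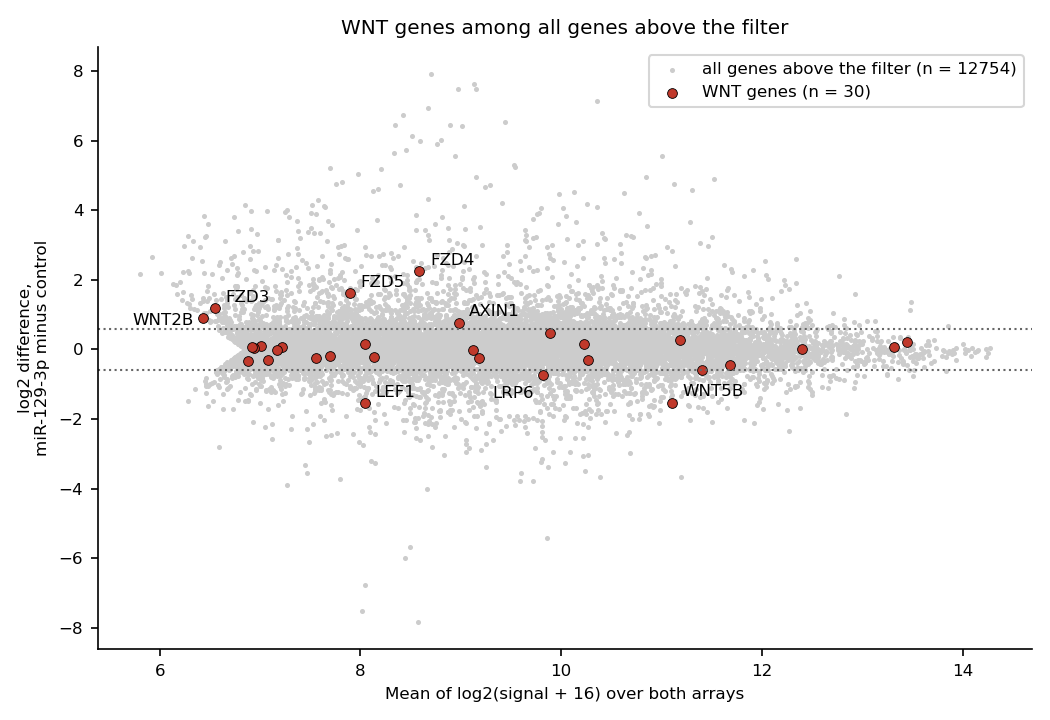
The log2 difference, miR-129-3p minus control, against the mean of log2(signal + 16) over both arrays, for 12754 measured genes (grey) and the 30 measured WNT genes (red), with dotted lines at 1.5-fold. The 8 named WNT genes lie past the lines and FZD4 is highest at 2.24, inside the cloud of all genes.

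Promoter sequences are shown for FZD4 and FZD5, the pair of Frizzleds at 100 or more on both arrays that were higher, and for LEF1 and WNT5B, the genes with the largest lower differences. Each window is the 250 bases before a RefSeq start (GRCh38.p14), 5′ to 3′ on the gene's strand, with the GC box letters GGGCGG or their reverse complement CCGCCC in capitals. WNT5B has a pair of annotated starts.
FZD4: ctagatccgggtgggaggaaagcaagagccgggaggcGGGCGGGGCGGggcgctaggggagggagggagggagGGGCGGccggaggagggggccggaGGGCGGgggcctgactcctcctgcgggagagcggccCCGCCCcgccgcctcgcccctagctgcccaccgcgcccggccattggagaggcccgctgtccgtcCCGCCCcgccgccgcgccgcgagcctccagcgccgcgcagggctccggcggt
FZD5: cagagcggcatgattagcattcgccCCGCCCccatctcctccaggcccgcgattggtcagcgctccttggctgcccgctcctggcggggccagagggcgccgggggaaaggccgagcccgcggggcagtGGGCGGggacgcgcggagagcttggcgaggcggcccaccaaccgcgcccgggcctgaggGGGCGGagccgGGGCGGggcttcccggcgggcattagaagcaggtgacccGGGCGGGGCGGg
LEF1: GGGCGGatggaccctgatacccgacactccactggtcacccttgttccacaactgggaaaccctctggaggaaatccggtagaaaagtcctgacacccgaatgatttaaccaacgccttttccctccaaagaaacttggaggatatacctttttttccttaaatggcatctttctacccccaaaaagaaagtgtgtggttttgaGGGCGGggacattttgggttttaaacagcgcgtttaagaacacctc
WNT5B, first start: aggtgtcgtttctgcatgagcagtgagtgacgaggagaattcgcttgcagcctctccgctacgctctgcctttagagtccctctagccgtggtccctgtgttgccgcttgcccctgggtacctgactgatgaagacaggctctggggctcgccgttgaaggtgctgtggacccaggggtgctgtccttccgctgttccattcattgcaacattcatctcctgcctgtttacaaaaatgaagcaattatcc
WNT5B, second start: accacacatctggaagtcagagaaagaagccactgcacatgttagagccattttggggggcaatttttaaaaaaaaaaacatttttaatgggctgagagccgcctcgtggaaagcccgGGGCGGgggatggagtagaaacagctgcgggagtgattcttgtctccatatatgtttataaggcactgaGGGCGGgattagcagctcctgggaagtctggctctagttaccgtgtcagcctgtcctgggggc
The windows lie at chr11:86955396-86955645 (minus strand) for FZD4, chr2:207769907-207770156 (minus) for FZD5, chr4:108166302-108166551 (minus) for LEF1, and chr12:1616806-1617055 and chr12:1628981-1629230 (plus) for WNT5B. FZD4 and FZD5 hold 6 GC boxes each, some of them adjoining, with 80.8% and 76.8% G or C. LEF1 holds 2 at 47.6% G or C, and the WNT5B windows hold 0 at 54.8% and 2 at 50.8%. Over 35116 RefSeq windows of this length 42.6% hold a GC box. Among the WNT genes with a window, 27 of 29 hold one in any of their windows, so the box does not set the higher genes apart from the rest. The percentages count windows, whereas these are counts of genes, some with several windows. The shares therefore cannot be compared directly. The TCF/LEF core CTTTGA, read on both strands, is in 11.2% of all windows and in 0 of the 5 shown. Of the 29 WNT genes 1, DKK1, holds it. These are matches of letters and not measured binding.

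Outside the chosen genes, 8 lists of other WNT pathway genes were compared. The lists overlap in part. Of 75 measured genes in them that are not WNT members, 10 were at least 1.5-fold higher (17.3% in all genes) and 7 lower (10.8%), with a median of 0.09. As with the members, these shares were no larger than those of all measured genes. The differences below are values of single genes without a replicate.

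The largest difference of the lists was in the R-spondins, secreted proteins that amplify WNT signalling by clearing the ligases RNF43 and ZNRF3 from Frizzleds. RSPO3 read 1479 with miR-129-3p, against 106 in control, a difference of 3.61 on its only probe set. Its receptor LGR4 read 2861 with miR-129-3p and 2550 in control, and ZNRF3 read 344 with miR-129-3p and 272 in control. LGR5 and RNF43 were under 100 on both arrays. Of the 3 measured genes of this list 1 was higher (17.3% in all genes) and 0 lower (10.8%).

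Other extracellular and receptor genes differed less. IGFBP4, which binds insulin-like growth factors and can also antagonise WNT receptors, read 443 with miR-129-3p and 78.2 in control, a difference of 2.29 on its only probe set. It was measured only through the miR-129-3p array and so had to be higher. With 100 in place of its control signal it was at least 4.43-fold higher. It was the only one of 2 measured inhibitors of its list past the limit, and WIF1 and FRZB were under 100 on both arrays. WLS, which carries WNT proteins to the cell surface, differed by 0.26 on the probe set used but by 0.76 and 0.93 on its other probe sets. Of 6 measured secretion genes 0 passed the limit, and 0 of 4 measured alternative receptors did. Beside these counts and that of the inhibitors, 17.3% of all measured genes were higher and 10.8% lower. With so few genes the counts say little of the lists. ROR1, a receptor for WNT5A, differed by -0.30, with other probe sets at -1.16 and -0.55, and RYK by 0.17. ROR2 was under 100 on both arrays. PORCN was not analysed here.

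Of 21 measured cytoplasmic transducers 3 were higher and 3 lower, near the 17.3% and 10.8% of all measured genes. DVL1, which relays the Frizzled signal, read 3668 with miR-129-3p and 2011 in control (0.86), whereas DVL2 differed by -0.41. DVL3 differed by -0.50 on the probe set used and by 0.18 on its other one above the limit. BTRC, the ligase that marks beta-catenin for degradation, differed by 0.86, but only by 0.10 and 0.26 on its other probe sets. CSNK1G1, named after its value was seen, differed by 0.76. DACT1, a Dishevelled-binding modulator, read 175 with miR-129-3p and 663 in control (-1.83). GSK3B, the kinase that phosphorylates beta-catenin, read 845 with miR-129-3p and 1441 in control (-0.76), with its other probe sets above the limit at -0.51 and -0.38. NKD1, a feedback inhibitor, read 99.7 with miR-129-3p and 172 in control (-0.70). It was measured only through the control array and so had to be lower. With 100 in place of its miR-129-3p signal it was at least 1.72-fold lower. With all probe sets averaged GSK3B stood at -0.42 and NKD1 at -0.28, and 1 gene of the list was lower in place of 3.

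Of 17 measured nuclear cofactors 3 were higher, near the 17.3% of all measured genes, and 0 lower, beside 10.8%. TLE4 and TLE3, co-repressors that bind TCF factors, differed by 0.92 and 0.84. TLE3 had its other probe sets at 0.85 to 0.94, and TLE4 its other one at 0.47. CHD8, named after its value was seen, differed by 0.67 (0.56 after a loess trend was subtracted and 0.58 after quantile normalization, both within the limit). Of 12 measured planar polarity genes 1 was higher, PRICKLE2 at 0.63, and 2 were lower, beside 17.3% and 10.8% of all measured genes. PRICKLE2 fell within the limit after a loess trend was subtracted (0.53) and after quantile normalization (0.56), which left 0 higher. With all probe sets averaged 2 were higher. CELSR3 differed by 0.23 on the probe set used but by 1.45 on its other one above the limit. INTU, which also acts in cilium formation, read 98.0 with miR-129-3p and 269 in control (-1.32). It was measured only through the control array and so had to be lower. With 100 in place of its miR-129-3p signal it was at least 2.69-fold lower. PRICKLE1 read 196 with miR-129-3p and 493 in control (-1.26, with -1.43 and -0.92 on its other probe sets).

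Of 17 measured canonical target genes, a list that shares AXIN2, LEF1 and DKK1 with the WNT genes, 1 was higher and 4 lower, beside 17.3% and 10.8% of all measured genes, with a median of -0.02. BMP4, a growth factor, read 793 with miR-129-3p and 254 in control (1.58). EDN1, the vasoconstrictor endothelin 1, read 190 with miR-129-3p and 1347 in control (-2.73, and -1.76 on its other probe set). LEF1 and NKD1, the latter measured only through the control array, are the lower ones given above. MYC, a driver of proliferation, was the fourth lower one, at 1318 with miR-129-3p and 2139 in control (-0.69). CCND1, cyclin D1, differed by -0.48, and by -0.78 on its other probe set above the limit. CD44, named after its value was seen, differed by 0.37, with its 11 other probe sets above the limit at 0.45 to 2.20. Most of these genes also answer to other pathways.

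**Figure D4:**
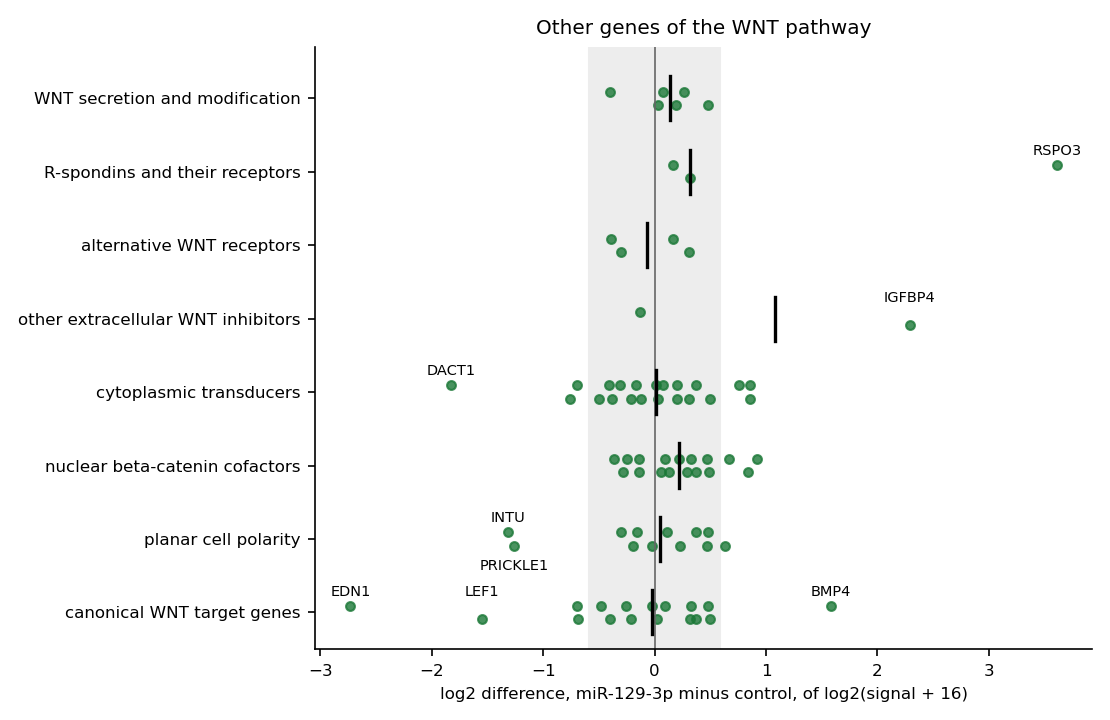
The log2 difference, miR-129-3p minus control, of each measured gene in 8 lists of other WNT pathway genes (points), with the list median as a bar and the span within 1.5-fold shaded; genes past 2-fold are named. RSPO3 stands at 3.61 and EDN1 at -2.73, while most points of every list but the extracellular inhibitors, with 2 measured genes, lie in the shaded span.

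The labelled cell type was checked against markers. Of the retinal pigment epithelium, OTX2 read 1625 with miR-129-3p and 1452 in control, and MITF 1020 with miR-129-3p and 2470 in control (-1.26), but RPE65, RLBP1, BEST1, TYR and TYRP1 were under 100 on both arrays. Of this list 8 of 14 genes were measured, with 1 higher (17.3% in all genes) and 3 lower (10.8%). PMEL was the higher one, at 229 with miR-129-3p and 114 in control (0.92). MITF, KRT18 (-0.96) and EZR (-0.64) were the lower ones, and OTX2, KRT8, MERTK and TTR stayed within the limit. Blood cell, neuronal, melanocyte and endothelial lists had 2, 1, 1 and 2 measured genes, all within the limit on the probe set used. SNAP25, the neuronal one, differed by 0.29 there but by 2.82 on its other probe set above the limit, and PECAM1, an endothelial one, by 0.22 and 1.10. Of 7 fibroblast genes 5 were measured, and all 5 passed the limit, 2 higher (17.3% in all genes) and 3 lower (10.8%). COL1A1, DCN and THY1 were the lower ones and COL3A1 and PDGFRA the higher. COL3A1, at 192 with miR-129-3p and 55.6 in control, was measured only through the miR-129-3p array and so had to be higher. PDGFRA differed by 0.74 on the probe set used and by -0.23 on its other one, so its direction was not settled. The part of these marker differences in those of the WNT genes was not tested.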

How the data were processed

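The deposited table gives 1 linear intensity per probe set and array, deposited by the authors. MAS5 and RMA are both named, per the submitters' processing notes, with no word on which of them made the intensities or on scaling between arrays. No detection call, aligner or build applies or is given in the sources used here. A floor or compression of low intensities in that step would change the differences of dim genes. Probe sets were named from the platform annotation: of 54613, 41091 had 1 gene symbol, 1801 several (left out) and 11721 none listed.

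From these, log2(signal + 16) was taken, the brightest probe set kept per gene, and genes at 100 or more on either array retained. Groups came from the genotype label. No test was made with 1 array per group. The members, lists and limits were chosen with earlier results of these data known. All measured members are named, and from each list up to 2 genes at each end past 1.5-fold plus a fixed set; promoter windows were shown for the members with the largest differences, and FZD5 was added. Code was tested on simulated data. Alternatives were 3 scalings, added constants of 1 and 64, other filters, other probe set rules, a floor of 100, a 2-fold limit and a narrower name pattern. The number of arrays limits the precision. The work used Python 3.11.15 with pandas 2.3.3, numpy 2.4.6 and, for loess and plots, statsmodels 0.14.6 and matplotlib 3.10.9.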

Additional observations from a re-analysis of the deposited data

Results flagged for a closer look

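The probe sets annotated with both MIR4683 and FZD8 enter no comparison above, because a signal on them cannot be given to 1 gene. They carried more signal on the miR-129-3p array than on the control array. The brightest read 2406 with miR-129-3p and 457 in control, a log2 difference of 2.35, and the next read 1202 with miR-129-3p and 167 in control, a difference of 2.74. The remaining one was under 100 on both arrays, at 75.8 with miR-129-3p and 36.8 in control. The 3 probe sets annotated with LOC101929777 and WNT3 differed by 0.12 to 0.27.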

How the results depend on the processing

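No paired analysis was possible because each condition has 1 array. Over 12 planned and 2 added alternatives, the latter chosen after seeing the data, the median of the measured WNT genes ran from -0.05 to 0.13. No WNT gene or named pathway gene past the 1.5-fold limit changed sign where it could be recomputed. Without _x_at and _s_at probe sets LEF1, WNT5B and RSPO3 dropped out, so their signs were not checked there. That left 0 genes of the R-spondin list higher, against 1. Marker genes were not recomputed. The loess trend over level ran from -0.11 to 0.10. The count of higher WNT genes was 3 rather than 5 with a mean signal of 200 as filter, with the mean of all probe sets, with signals under 100 set to 100, with a 2-fold limit, and, as an added alternative, with genes at 100 or more on both arrays. With every probe set above the filter required to pass, also added, 4 were higher and 2 lower. The 2-fold limit gave 3 higher and 4 lower of the other pathway genes, and 7.83% higher and 4.56% lower of all genes. For the other alternatives the share of all genes is not given here, so their counts stand without a background. The median of the alternative receptors was -0.55 without _x_at and _s_at probe sets, against -0.07. That of the other extracellular inhibitors, 1.08 over 2 genes, was -0.19 with quantile normalization, -0.08 with no filter, 2.29 with the filter of 200, -0.07 with signals floored at 100 and -0.13 with genes at 100 or more on both arrays; few genes enter this median. Of 275 differences of single WNT genes recomputed, 12 moved by more than the pooled SD of 0.37. With all probe sets averaged, FZD4 stood at 1.33, LEF1 at -0.65, WNT5B at -1.04 and WNT5A at -0.84. With signals floored at 100, FZD3 stood at 0.29 and WNT2B at 0.02. Dim genes are limited by signal over background, and no detection call was used here.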
